A study of Mus musculus with 2 samples.

Results

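The subunits of the Polycomb complexes were described in forebrain RNA of mouse embryos at embryonic day 12.5. The set was a list of 35 genes, matched by symbol to the GENCODE M21 gene table of each library, and all 35 were found once among the 55536 genes of the table, of which 22028 are protein-coding. It held 11 subunits of Polycomb repressive complex 2 (PRC2), 20 of Polycomb repressive complex 1 (PRC1) and 4 of the Polycomb repressive deubiquitinase (PR-DUB). The samples were 2 libraries of the same group, healthy B6NCrl embryos of mixed sex for which the labels give no treatment or engineered allele, pool 1 from the forebrains of 120 embryos and pool 2 from those of 68 embryos. Each library was made from 10 ng of RNA by oligo-dT priming and Nextera tagmentation. With 1 group and no contrast in the labels, the questions addressed were which subunits this tissue expressed, which paralogs led each family, and how far the pools differed. Pooling hides the spread between embryos.

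Polycomb complexes keep developmental genes silent in cells where they are not needed. PRC2 trimethylates histone H3 on a lysine of its tail, PRC1 attaches ubiquitin to histone H2A and compacts chromatin, and PR-DUB removes that ubiquitin again. Most subunits are encoded by several paralogs, and which paralog is used sets the type of complex. In the developing forebrain they are known for controlling the timing of neurogenesis in progenitor cells.

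The libraries held 33373776 gene counts (pool 1) and 34406601 gene counts (pool 2), and every member had at least 180 counts in each pool. The biological coefficient of variation between the pools, from edgeR's common dispersion over 19063 genes, was 8.50%. The labelled tissue had its markers, with all 4 radial glia genes, all 4 neuron genes, all 4 subpallium genes and all 3 pallium genes at 1 TPM or more in each pool. TPM is a transcript abundance per length, scaled to a common total per library, and was used to compare levels of different genes. Such comparisons depend on how reads are divided between annotated transcripts. Whether reads covered the transcripts evenly in these oligo-dT primed libraries was not examined. Genes of other cell types were present as well. The 3 red cell genes came to 9665 TPM in pool 1 against 13038 TPM in pool 2, the 2 mesenchyme genes to 449 and 524 TPM, and the 4 subpallium genes to 461 and 302 TPM. Of the midbrain and hindbrain genes, En2 had 0 counts in both pools. En1 had 37 counts in pool 1 against 52 counts in pool 2, or 0.69 and 0.93 TPM. In bulk tissue a lower level can come from fewer cells of a type or from less RNA per cell, and these cannot be told apart.

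All 35 subunits were detected, meaning a TPM of at least 1 in both pools, against 58.9% of all protein-coding genes. Their levels spanned from Rbbp4, a histone-binding protein of PRC2, at 449 TPM in pool 1 against 411 TPM in pool 2, to Cbx7, a chromodomain protein of PRC1, at 2.55 and 2.84 TPM. The median over the members was 28.1 TPM, against 21.9 TPM over the 12966 detected protein-coding genes. A total of 20 members lay above that median, 11 lay at or above the 75th percentile of detected protein-coding genes and 5 below the 25th. By complex, the median was 53.8 TPM for PRC2, 26.96 TPM for PRC1 and 14.6 TPM for PR-DUB. Over complete coding transcripts alone, described below, these medians were 24.5, 18.0 and 9.38 TPM. When the members were ordered by mean level, 14 of the 34 pairs of neighbours in the order overlapped between the pools. The members that formed the top of the order (Rbbp4, Rbbp7, Ezh2 and Rnf2) did not overlap each other, nor did neighbours further down to Kdm2b. With complete coding transcripts only, Rbbp7 was the highest of these at 218 TPM in pool 1 against 223 TPM in pool 2. Rbbp4, at 139 and 98.3 TPM, then overlapped both Ezh2 (120 and 115 TPM) and Rnf2 (104 TPM in each pool). The smallest two-sided p that an exact permutation of 2 pools by sign can give is 0.5, so these orders were not tested.

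**Figure D1:**
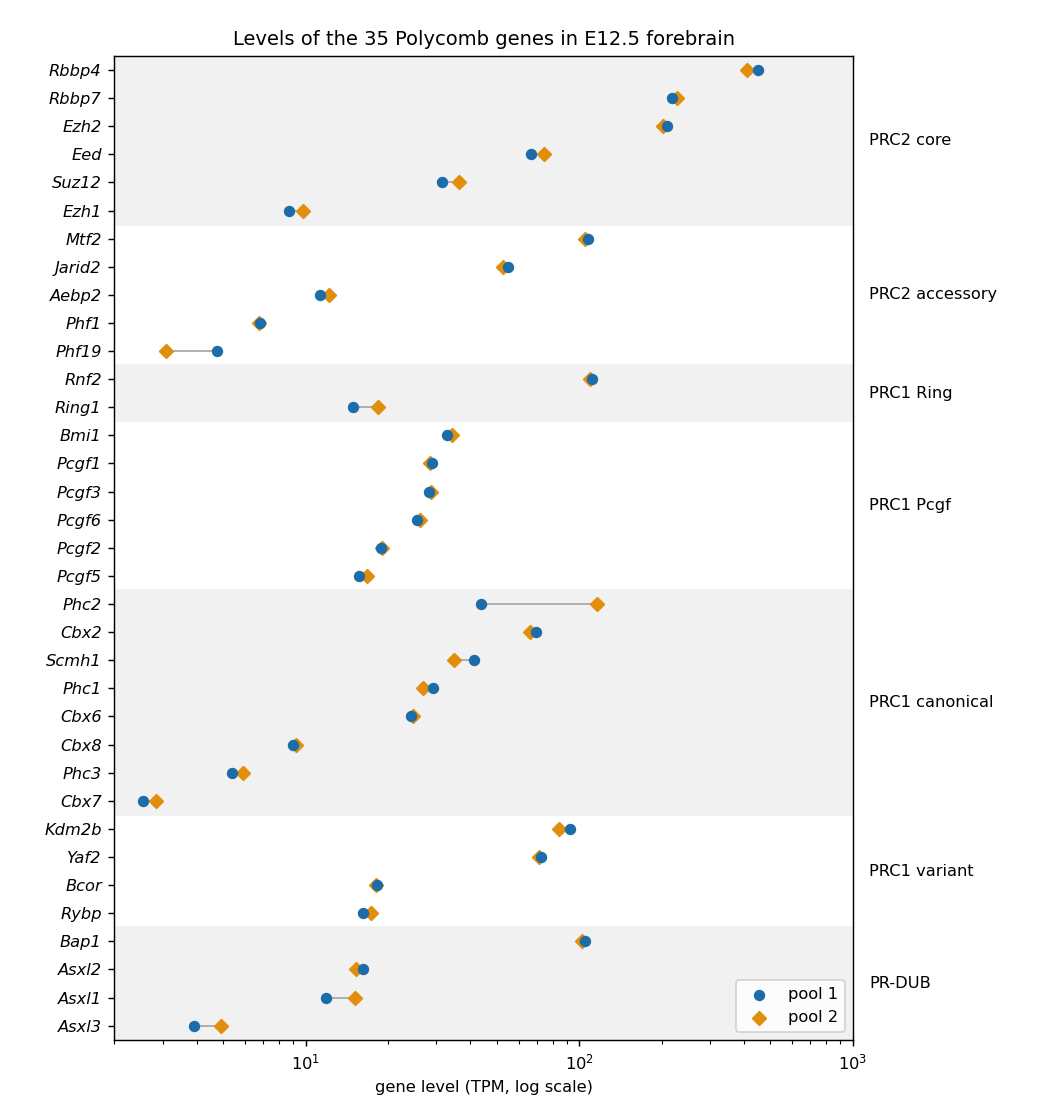
Gene level in TPM (log axis) of the 35 Polycomb genes, grouped by role, with pool 1 as blue circles and pool 2 as orange diamonds. For most genes the pools lie close together, while Phc2 has 43.8 TPM in pool 1 against 116 TPM in pool 2. The PRC2 core, PRC2 accessory, PRC1 Ring, PRC1 canonical and PR-DUB groups each hold both high and low genes.

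In RNA level the PRC2 core was led by its catalytic and histone-binding subunits. Ezh2 (ENSMUSG00000029687.16), the main methyltransferase, had 209 TPM in pool 1 against 202 TPM in pool 2. Ezh1, its paralog of lower catalytic activity, had 8.67 and 9.77 TPM, so Ezh2 was 22.3-fold higher and held 96.0% of the family's TPM in pool 1 and 95.4% in pool 2. Eed, which binds the trimethylated mark and stimulates the enzyme, had 66.8 and 74.1 TPM. Suz12, the scaffold on which the core is built, had 31.4 and 36.3 TPM. Within the core, then, Suz12 was below Eed and Ezh2 in both pools. The summed Ezh level was 6.92 times that of Suz12 in pool 1 and 5.85 times in pool 2. With complete coding transcripts only, the summed Ezh level was 5.295 and 4.88 times that of Suz12, and Ezh2 was 16.9-fold above Ezh1. The histone-binding WD40 proteins Rbbp4 and Rbbp7, which also serve other chromatin complexes, had 449 and 411 TPM and 219 and 228 TPM.

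The accessory subunits define subtypes of PRC2 and ranged from 3.92 to 106 TPM in mean level. Mtf2, a Polycomb-like protein that binds unmethylated CpG-rich DNA, had 108 TPM in pool 1 against 105 TPM in pool 2 and held 90.9% ± 0.829 of the TPM of its family (SD, n = 2 pools), or 73.0% ± 1.31 with complete coding transcripts only. Its paralog Phf1 had 6.83 and 6.77 TPM, and Phf19 had 4.76 and 3.08 TPM. Mtf2 was thus 15.6-fold above Phf1 and 27.1-fold above Phf19 in mean TPM. With complete coding transcripts only these were 3.54-fold and 11.4-fold, and with counts per base of the longest coding transcript 6.87-fold and 17.7-fold. Jarid2 and Aebp2 mark the other subtype of PRC2. Jarid2, which binds PRC2 and stimulates it, had 54.9 and 52.7 TPM, and the zinc finger protein Aebp2 had 11.3 and 12.2 TPM. Of the other PRC2 partners on a context list, the elongin-binding Epop had 7.80 and 9.35 TPM, Lcor had 30.4 and 29.7 TPM, and Ezhip (AU022751 in this annotation), an inhibitor of PRC2, had 0 counts in both pools, which allows a level of at most 0.0736 TPM (pool 1) or 0.0706 TPM (pool 2).

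Of the RNA for the PRC1 ubiquitin ligases, most was that of Rnf2, while protein and the make-up of the complexes were not measured. Rnf2, known as RING1B, had 112 TPM in pool 1 against 109 TPM in pool 2, and Ring1 had 14.9 and 18.4 TPM, a difference of 6.61-fold. Each ligase pairs with a Pcgf protein, and the 6 Pcgf genes lay between 15.6 and 34.4 TPM. Bmi1 and Pcgf2, the partners in canonical PRC1, had 32.8 and 34.4 TPM and 18.9 TPM in each pool, so Bmi1 was 1.78-fold higher, or 4.26-fold with counts per base. Pcgf1, the partner in the Kdm2b and Bcor complex, had 28.9 and 28.4 TPM. Pcgf6, found with Mga and E2f6, had 25.4 and 26.2 TPM. Pcgf3 had 28.3 and 28.8 TPM, and its close relative Pcgf5 had 15.6 and 16.7 TPM. No Pcgf gene held more than 22.4% of the family's TPM in either pool, and the lowest share was that of Pcgf5 at 10.4% in pool 1.

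Canonical PRC1 carries a Cbx chromodomain protein, which reads the PRC2 mark, and a Phc protein, whose SAM domain forms chains. Among the 4 Cbx genes examined, Cbx2 led with 69.7 TPM in pool 1 against 66.0 TPM in pool 2. Cbx6 followed at 24.3 and 24.7 TPM, Cbx8 at 9.00 and 9.20 TPM, and Cbx7 at 2.55 and 2.84 TPM. Cbx2 was 2.77-fold above Cbx6, 7.45-fold above Cbx8 and 25.2-fold above Cbx7. The distance from Cbx8 was 17.7-fold with complete coding transcripts and 14.1-fold with counts per base, and that from Cbx7 was 15.1-fold by the deposited posterior mean TPM. These genes lie in neighbouring pairs of unequal level. Cbx2 and Cbx8 stand on opposite strands of chromosome 11 (119022962 to 119031270 and 119036305 to 119040969, GRCm38), 5.04 kb apart, and Cbx6 and Cbx7 on the same strand of chromosome 15 (79823896 to 79834688 and 79915807 to 79971119), 81.1 kb apart. Of the Phc genes, Phc1 had 29.3 and 26.95 TPM and Phc3 had 5.39 and 5.89 TPM, while Phc2 had 43.8 and 116 TPM and is taken up below. Scmh1, a SAM domain protein that binds the Phc proteins, had 41.1 and 34.9 TPM.

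Variant PRC1 lacks Cbx and Phc proteins and contains Rybp or Yaf2, which stimulate the ligase. Yaf2 had 72.7 TPM in pool 1 against 71.3 TPM in pool 2 and Rybp had 16.3 and 17.4 TPM, so Yaf2 was 4.28-fold higher. The summed level of Rybp and Yaf2 was 0.843 times that of the 4 Cbx genes in pool 1 and 0.864 times in pool 2. Kdm2b, whose CxxC zinc finger brings a variant complex to unmethylated CpG islands, had 92.4 and 84.4 TPM. Bcor, the scaffold that joins Pcgf1 to Kdm2b, had 18.3 and 18.1 TPM. All 17 further PRC1 partners on the context list were detected. The highest were the adaptor Skp1a at 812 and 750.0 TPM and the deacetylase Hdac2 at 368 and 352 TPM, followed by Csnk2b and Hdac1, and the lowest were Bcorl1 at 5.26 and 4.99 TPM and Fbrs at 8.08 and 9.60 TPM.

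The RNA levels of PR-DUB were unequal between its enzyme and its cofactors. Bap1, the deubiquitinase, had 105 TPM in pool 1 against 102 TPM in pool 2. The Asxl proteins, which activate Bap1, summed to 31.9 and 35.3 TPM, so Bap1 was 3.29 times the sum of its cofactors in pool 1 and 2.89 times in pool 2. With complete coding transcripts only, it was 4.52 times that sum in pool 1 and 3.45 times in pool 2. Asxl1 had 11.8 and 15.1 TPM, Asxl2 had 16.2 and 15.3 TPM, and Asxl3 had 3.91 and 4.89 TPM. Asxl1 and Asxl2 did not overlap, but in pool 2 they were close. Of 7 PR-DUB partners all were detected, from the glycosyltransferase Ogt at 170 and 156 TPM to the forkhead protein Foxk1 at 4.64 and 4.10 TPM. Enzymes that remove the same marks outside these complexes were also present. All 3 genes of the Kdm6 family, demethylases of the PRC2 mark and their Y-linked relative, were detected, with Kdm6b at 41.6 and 39.8 TPM, Kdm6a at 25.3 and 27.4 TPM and Uty at 14.2 and 13.6 TPM, as were all 3 further H2A deubiquitinases, led by Usp21 at 97.4 and 92.9 TPM.

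**Figure D2:**
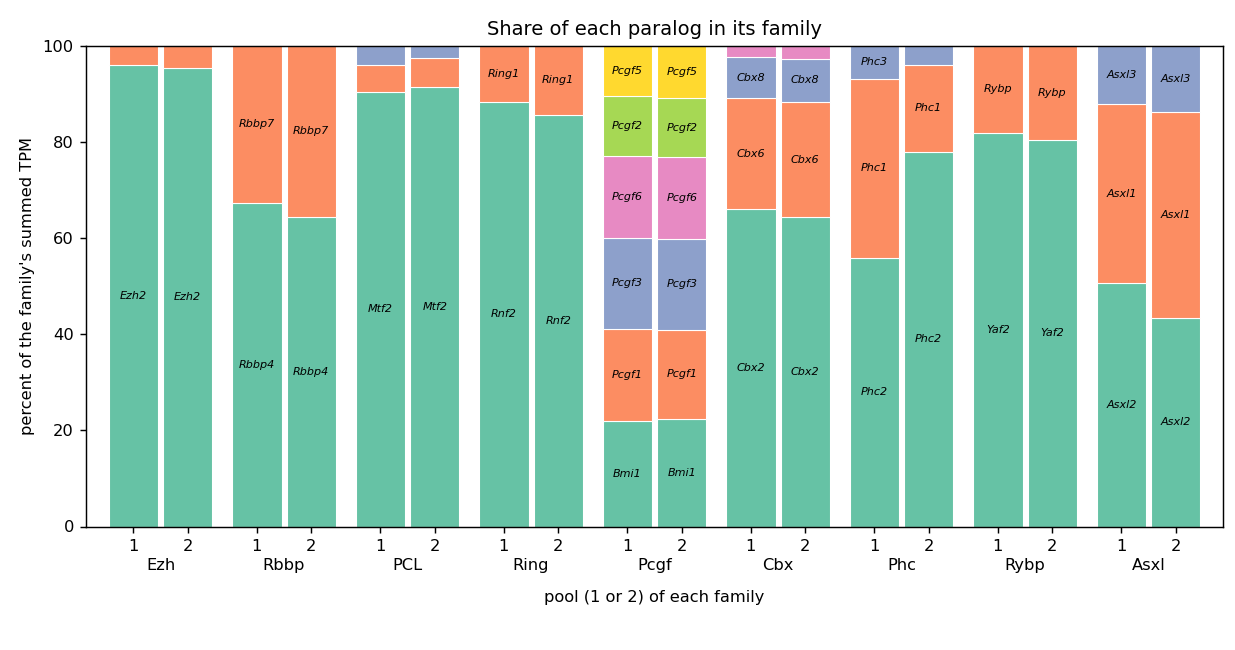
Percent of each family's summed TPM held by each paralog, with pool 1 left and pool 2 right of each pair of bars; unlabelled segments are under 6%. Ezh2 and Mtf2 hold over 90% of their families, no Pcgf gene holds over 22.4% or under 10.4% of its family, and the Phc bars differ between the pools, with Phc2 at 55.8% in pool 1 and 77.9% in pool 2.

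Across 22 pairs of paralogs the levels did not overlap between the pools in any pair, that is, each pool of the higher gene was above each pool of the lower gene. With the M4 table and with posterior mean TPM this held in 21 pairs and with coding-sequence transcripts in 20. Asxl1 and Asxl2 then overlapped, as did Pcgf1 and Pcgf6 with coding-sequence transcripts. The same share over pairs of unrelated genes was not computed, and some genes enter several pairs. The SD over the 2 pools was a median of 3.90% of a member's mean, so most genes of unlike level would not overlap. The count is therefore not a result about paralogs. The smallest mean difference was between Pcgf1 and Pcgf6, at 1.11-fold, and the largest between Mtf2 and Phf19. With coding-sequence transcripts, complete coding transcripts or counts per base the largest was instead between Cbx2 and Cbx7. The order depended on which transcripts were counted in some pairs. With complete coding transcripts only, a set chosen after the data were seen, Rbbp4 was below Rbbp7 and Asxl1 was above Asxl2. Rbbp4 then had 139 TPM in pool 1 against 98.3 TPM in pool 2, and Asxl2 had 5.54 and 6.37 TPM against 11.4 and 14.2 TPM for Asxl1. With counts per base of the longest coding transcript, Pcgf3 was below Pcgf5, Pcgf1 below Pcgf6 and Rbbp4 below Rbbp7.

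The deposited transcript tables gave the forms behind each gene level. GENCODE classes were grouped as complete coding, incomplete coding (a coding sequence whose start or end is not known), nonsense-mediated decay and non-coding. Complete coding transcripts held a median of 76.5% of a member's TPM, against 86.0% over the detected protein-coding genes. On the mean of the pools they held under 50% in 6 of the 35 members, against 16.1% of detected protein-coding genes. The 6 were Mtf2, Rbbp4, Scmh1, Asxl2, Cbx8 and Phf19, of which Phf19 had 38.2% in pool 1 but 58.6% in pool 2. At the other end, Rbbp7 had 98.8% of its TPM in complete coding transcripts and Cbx2 had 97.9% in Cbx2-201 in pool 1 and 97.2% in pool 2. The transcript of highest TPM was complete coding in 32 members, and in the other 3 (Rbbp4, Mtf2 and Cbx8) it was not, on the mean of the pools and in pool 2, with Asxl2 added in pool 1, against 11.7% of detected protein-coding genes. A short transcript needs few reads to reach a high TPM, and by expected counts averaged over the pools the leading transcript was complete coding in all 35 members. In pool 1 alone it was so in 34, since the retained intron Cbx7-207 led Cbx7 there with 82.7 counts, against 70.7 counts for Cbx7-203.

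**Figure D3:**
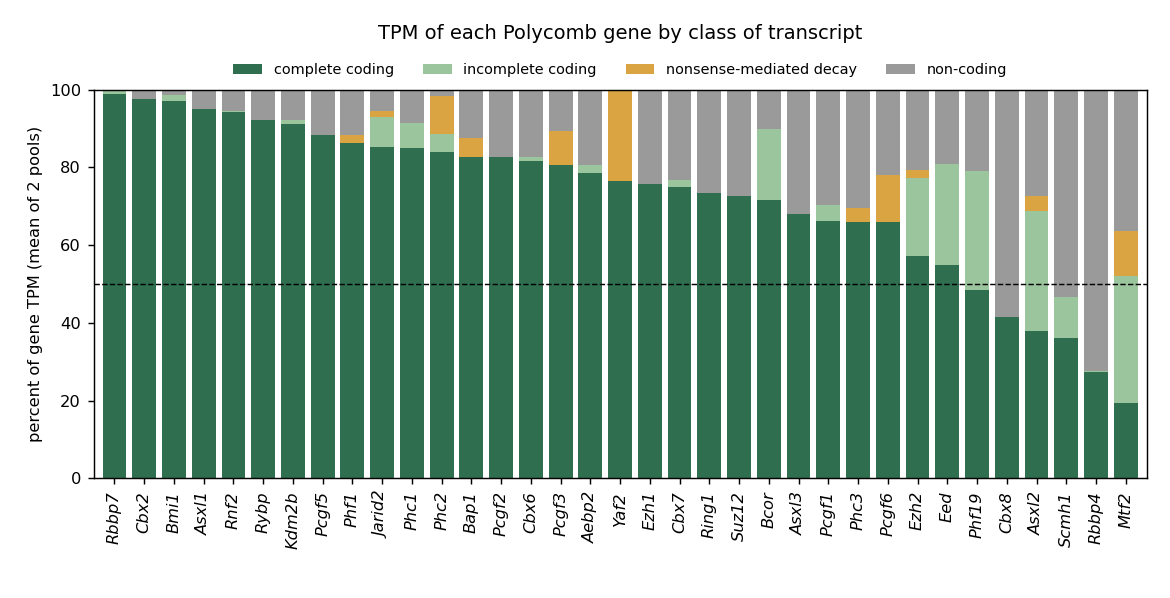
Percent of each gene's TPM, as the mean of 2 pools, in complete coding, incomplete coding, nonsense-mediated decay and non-coding transcripts, with the genes ordered by the complete coding share. The 6 genes at the right lie under the dashed line at 50%, from Phf19 to Mtf2, and Yaf2 has a large share in a decay transcript.

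Rbbp4 (chromosome 4, minus strand) had most of its TPM in a non-coding transcript. Rbbp4-203, annotated as a processed transcript of 722 bases without a coding sequence, had 302 TPM in pool 1 against 306 TPM in pool 2, which is 67.3% and 74.5% of the gene's TPM. It took 3995 and 4222 counts. Rbbp4-201, which codes for the full protein of 425 residues, had 139 and 98.3 TPM and 12744 and 9366 counts. The non-coding form thus had nearly equal levels in the pools, and the coding form was higher in pool 1. The transcripts differ in their splicing, and the 30 bases around the last join of Rbbp4-203 are given here beside the uninterrupted exon of Rbbp4-201, 5′ to 3′, from GENCODE M21 on GRCm38. Capitals mark the bases after the join, where the last exon begins at position 129309876, while the exon before it ends at 129322802.
Rbbp4-203, chromosome 4, join of 129322802 to 129309876: aaccatgaaggagaaCTGAACAAAGTCTGG
Rbbp4-201, chr4:129322787-129322816, minus strand: aaccatgaaggagaagtgaacagggcccgg
The exon of Rbbp4-201 goes on with GT after the join point, and its last exon has AG before the bases in capitals. Mtf2 had a similar split, since Mtf2-208, an incomplete coding transcript of 718 bases, held 30.6% of its TPM in pool 1 and 28.9% in pool 2 but 11.7% and 10.7% of its counts, and the complete Mtf2-201 had 20.9 and 20.5 TPM. For Yaf2, the nonsense-mediated decay form Yaf2-202 held 22.3% and 24.7% of TPM.

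In Aebp2 and Cbx7, among other members, the coding transcript of highest TPM had fewer codons than the longest annotated form. On the mean of the pools this also held for Phf1 (559 against 599 codons) and Pcgf1 (247 against 259 codons). The longer form led Phf1 in pool 2 and Pcgf1 in pool 1. For Aebp2, Aebp2-201 with 274 codons had 4.76 TPM in pool 1 against 5.59 TPM in pool 2. Aebp2-202 with 496 codons had 1.51 and 1.49 TPM, and the longest form, of 504 codons, had 0.28 and 0.21 TPM. For Cbx7, Cbx7-203 with 158 codons had 1.19 and 1.51 TPM and Cbx7-201 with 251 codons had 0.710 and 0.630 TPM. Ezh1, Ezh2 and Eed were led by forms of full length. Ezh2-201 with 746 codons had 82.5 and 81.4 TPM, and Ezh2-202 with 704 codons had 34.2 and 27.4 TPM.

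Kdm2b and Phc2 had most of their TPM in transcripts annotated with an internal start. These shares are estimates from reads divided between annotated transcripts, and 5′ ends were not measured. Start groups were formed of transcripts whose annotated 5′ ends lie within 1 kb of the next, and these genes were chosen after their transcripts had been seen. In Kdm2b (chromosome 5, minus strand), the 8 transcripts of the first group summed to 8.61 TPM in pool 1 against 8.69 TPM in pool 2. Kdm2b-201, which starts inside the gene at 122900355, had 75.4 and 69.3 TPM, or 81.7% and 82.1% of the gene. It codes for 776 residues against 1309 in the longest form of the first group. The short protein is known to lack the demethylase domain and to keep the CxxC zinc finger. The share of the short form differed by less than 1 percentage point between the pools. Other members had large internal groups too. In Pcgf5 the group at 36409748 held 66.1% of TPM in pool 1 and 66.4% in pool 2, against 28.6% and 28.1% in its first group. By counts the first Pcgf5 group was higher, at 502 and 530 against 326 and 364. In Phc1 the second group held 49.3% and 60.1% of TPM.

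Phc2 (ENSMUSG00000028796.17, chromosome 4, 128654702 to 128752881, plus strand) has 4 start groups. The complete forms of the first and second code for 850 residues, the third holds only the non-coding Phc2-212 at 0.560 TPM in pool 1 against 0.520 TPM in pool 2, and the fourth is an internal group led by Phc2-202, which starts at 128727585 and codes for 323 residues. The short protein is known to keep the C-terminal SAM domain. Transcripts of the internal group summed to 36.4 TPM in pool 1 against 111 TPM in pool 2, or 83.1% and 95.7% of the gene. Phc2-202 itself had 32.4 and 93.3 TPM and 1675 and 5026 counts, so it carried most of the difference between the pools. The upstream groups were low in both pools. The first group had 2.89 and 3.43 TPM, and the second 3.93 and 1.08 TPM. The long forms Phc2-201 and Phc2-203, named after their values were seen, had 1.12 and 2.59 TPM and 3.34 and 0.98 TPM, so they differed in opposite directions and their sum was 4.46 TPM in pool 1 against 3.57 TPM in pool 2. The long and short forms share their last exons, and reads there are divided between them by estimate.

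**Figure D4:**
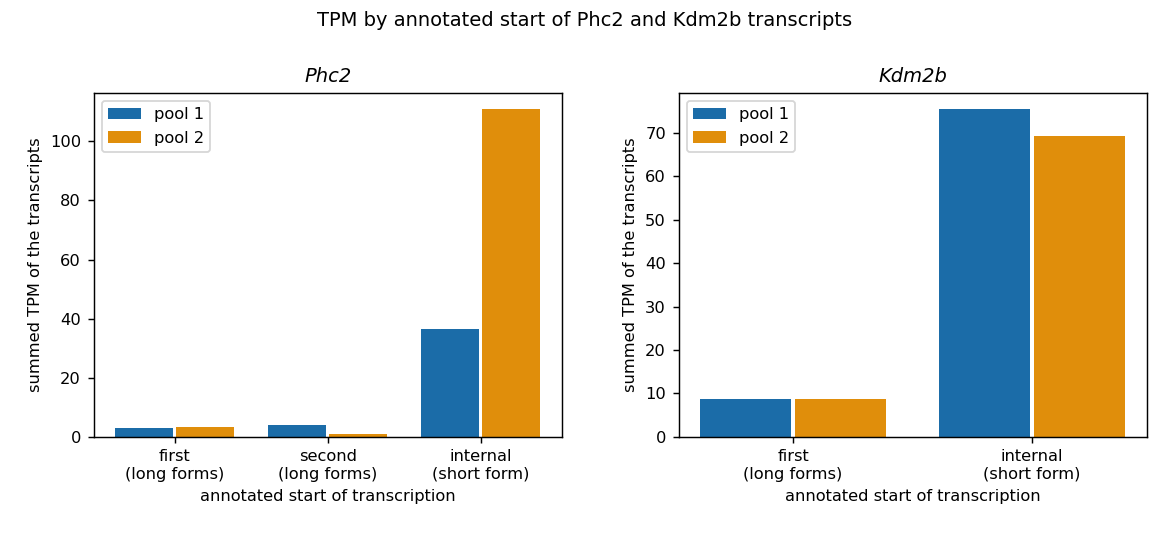
Summed TPM of the transcripts that begin at each annotated start, in pool 1 (blue, left) and pool 2 (orange, right), for Phc2 and Kdm2b. In both genes the internal start is the highest, and for Phc2 it has 36.4 TPM in pool 1 against 111 TPM in pool 2, while the Kdm2b bars are alike in both pools.

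The promoters of these starts are shown because the forms above differ in where they are annotated to begin. Each sequence is 300 bases, from 250 before to 50 after a RefSeq start (GRCm38.p6), 5′ to 3′ on the strand of the gene, with every CG in capitals.
Phc2 first start, chr4:128654452-128654751, plus strand: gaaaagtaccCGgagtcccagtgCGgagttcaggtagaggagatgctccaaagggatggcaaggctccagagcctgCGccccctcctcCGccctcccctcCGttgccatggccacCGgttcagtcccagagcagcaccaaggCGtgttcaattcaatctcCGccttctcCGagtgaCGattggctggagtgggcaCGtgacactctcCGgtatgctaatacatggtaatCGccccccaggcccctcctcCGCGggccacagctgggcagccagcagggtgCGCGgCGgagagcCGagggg
Phc2 second start, chr4:128688488-128688787, plus strand: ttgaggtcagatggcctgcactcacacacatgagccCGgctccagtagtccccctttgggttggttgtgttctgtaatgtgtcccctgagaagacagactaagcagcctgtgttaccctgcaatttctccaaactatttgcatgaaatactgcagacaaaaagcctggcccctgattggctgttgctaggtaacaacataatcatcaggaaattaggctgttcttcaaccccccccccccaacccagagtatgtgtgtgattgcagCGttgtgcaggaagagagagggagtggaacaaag
Phc2 internal start, chr4:128727321-128727620, plus strand: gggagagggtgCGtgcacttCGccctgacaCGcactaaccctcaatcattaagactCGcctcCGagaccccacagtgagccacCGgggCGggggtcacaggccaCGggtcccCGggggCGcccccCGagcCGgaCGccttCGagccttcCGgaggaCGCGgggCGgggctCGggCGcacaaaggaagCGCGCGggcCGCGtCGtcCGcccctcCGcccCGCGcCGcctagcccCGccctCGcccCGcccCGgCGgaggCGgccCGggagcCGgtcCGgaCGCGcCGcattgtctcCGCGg
Kdm2b first start, chr5:122989050-122989349, minus strand: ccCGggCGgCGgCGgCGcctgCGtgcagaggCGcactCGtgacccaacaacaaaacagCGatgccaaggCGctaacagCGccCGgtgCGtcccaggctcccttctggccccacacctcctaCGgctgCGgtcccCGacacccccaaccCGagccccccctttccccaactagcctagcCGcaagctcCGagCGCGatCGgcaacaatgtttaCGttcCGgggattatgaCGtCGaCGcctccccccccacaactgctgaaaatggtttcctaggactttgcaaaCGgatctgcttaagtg
Kdm2b internal start, chr5:122900301-122900600, minus strand: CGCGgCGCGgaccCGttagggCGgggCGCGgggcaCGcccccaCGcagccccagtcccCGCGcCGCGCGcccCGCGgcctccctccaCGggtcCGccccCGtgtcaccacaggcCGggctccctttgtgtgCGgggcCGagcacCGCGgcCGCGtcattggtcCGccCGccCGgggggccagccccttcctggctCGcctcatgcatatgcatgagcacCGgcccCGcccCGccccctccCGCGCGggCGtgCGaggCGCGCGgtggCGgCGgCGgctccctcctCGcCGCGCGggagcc
The internal Phc2 window holds 45 CG dinucleotides, a ratio of observed to expected of 1.02, against 19 (0.613) in the first window and 2 (0.107) in the second. The internal Kdm2b window holds 49 (0.996), and the first 28 (0.966). Both internal windows are richer in CG than the windows upstream in the same gene.

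CpG-rich promoters were common in the set, as they were among detected protein-coding genes. Of the 35 members, 30 had an entry in the RefSeq promoter table, with 43 windows in all. Some windows of a gene overlap and were each counted, such as those of Kdm2b from 122900301 and from 122900318. The Bcor windows from 12160297 and from 12160306 overlap as well. The median ratio of observed to expected CG was 0.81, against 0.75 over windows of detected protein-coding genes. The ratio of observed to expected CG was at least 0.6 in 35 of the 43 windows (81.4%), against 69.2% of 13060 windows of detected protein-coding genes and 35.8% of all 32851 windows. The motif GGGCGG was found on either strand in 30 of the 43 windows (69.8%), against 63.0% of windows of detected protein-coding genes and 35.7% of all. CCAAT was found in 16 (37.2%), against 38.1% and 37.4%, and TATAAA in 1 (2.33%), against 6.85% and 13.6%. GGGCGG and CG share letters, so these counts are not independent. A match is a match of letters only.

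The pools were compared as the log2 ratio of TMM-normalised counts, pool 1 over pool 2, with 1 library each, so that no test across genes was possible. Exact binomial intervals at 95% give counting error only. The members were close between the pools. Their median absolute log2 ratio was 0.07, against 0.13 over the 19063 genes compared, and their median log2 ratio was -0.03, against -0.0024 over all genes. The genes compared averaged 10 counts or more and were not matched to the members for count. Whether the members varied less than genes of similar count was not tested. A threshold of 0.32 on the log2 scale, a ratio of 5 to 4, was passed in the direction of pool 1 by 2 members (Rbbp4 and Phf19), against 7.84% of all genes, and in the direction of pool 2 by 1 member (Phc2), against 15.7%. With scaling to the spike-in RNAs, which shifts the median of all genes by -0.16, no member passed it in the direction of pool 1 and 5 did in that of pool 2 (Asxl1, Cbx8, Pcgf2, Phc2 and Ring1), against 4.42% and 25.7% of all genes with the same scaling. The counting interval left out equal counts in 16 members, against 33% of all genes. The deposited TPM intervals of the pools did not overlap in 5 members (Asxl1, Asxl3, Phc2, Rbbp4 and Suz12), against 11% of all genes.

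Phc2 stood apart from the other subunits. It had 2269 counts in pool 1 and 5913 counts in pool 2, a log2 ratio of -1.31 with a counting interval of -1.38 to -1.24, so it was 2.47-fold higher in pool 2. Across all genes compared, 1.59% had a larger absolute log2 ratio. It was the one member past 1.5-fold, against 7.96% of all genes past 1.5-fold in pool 2, and past 2-fold, against 2.81%. Among protein-coding genes that averaged 10 TPM or more, 6 were more than 2-fold higher in pool 2, listed after their values were seen, namely Phc2, Gna12, Crls1, Cop1, H1fx and Hist1h2ah. The 7 other protein-coding genes within 200 kb of Phc2 (Csmd2, Zscan20, Tlr12, A3galt2, Zfp362, Trim62 and Azin2), looked up after the Phc2 value was seen, had log2 ratios of -0.62 to 0.14, against -1.31 for Phc2. The lowest of these was A3galt2, which had only 17 counts in pool 1 against 28 counts in pool 2. Zfp362, with 1807 and 1953 counts, had a log2 ratio of -0.04. The older GENCODE M4 table gave Phc2 45.9 and 121 TPM. Red cell genes (3 of 3) and mesenchyme genes (2 of 2) were also higher in pool 2 and subpallium genes (4 of 4) lower, and their part in the Phc2 difference was not tested.

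Rbbp4 had 17304 counts in pool 1 and 14199 in pool 2, a log2 ratio of 0.36 (counting interval 0.33 to 0.39), and the difference lay in Rbbp4-201. It was within the threshold with spike-in scaling (0.20) and on the log2(TPM + 1) scale (0.12). Phf19 had 217 and 180 counts and a log2 ratio of 0.34, with a wide interval of 0.05 to 0.64, and 0.18 with spike-in scaling. Its complete coding transcript Phf19-201 had 1.82 and 1.81 TPM, or 141 and 146 counts, so the difference lay in other transcripts. In counts it was largest in the non-coding Phf19-203 of 2978 bases, with 47.7 counts in pool 1 against 23.95 in pool 2. Phf19-205 of 351 bases, at 1.73 and 0.770 TPM, had only 9.26 and 4.27 counts. Just under the threshold was Asxl1, with 1666 and 2172 counts and a log2 ratio of -0.31. Asxl1 passed it on the log2(TPM + 1) scale (-0.33). Of the catalytic subunits, the log2 ratio was 0.06 for Ezh2, -0.03 for Ezh1, 0.03 for Rnf2 and 0.13 for Bap1. Ring1, with 577 and 700 counts, had -0.20 (counting interval -0.36 to -0.04), and -0.37 with spike-in scaling, past the threshold.

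**Figure D5:**
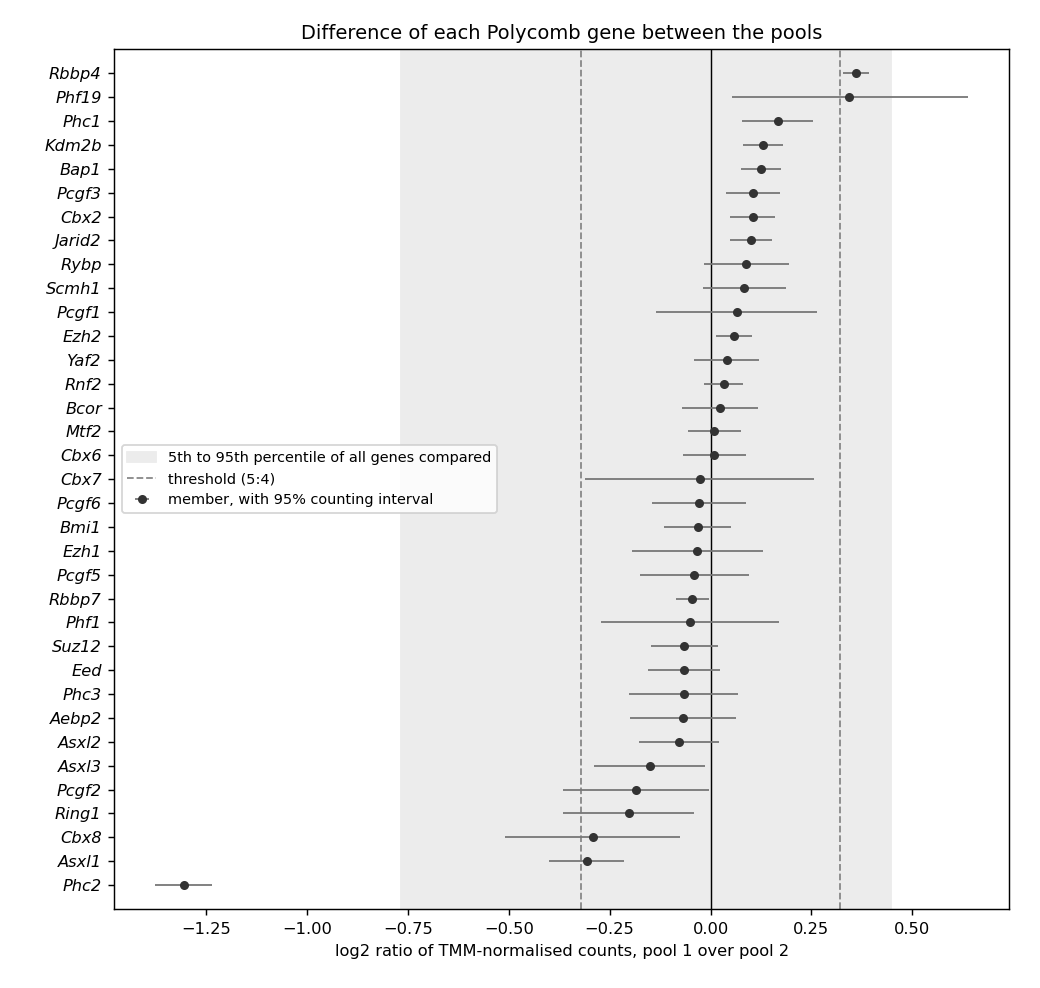
Log2 ratio of TMM-normalised counts, pool 1 over pool 2, for each Polycomb gene, with bars for the 95% counting interval, dashed lines at 0.32 either way and a grey band from the 5th to the 95th percentile of all genes compared (-0.77 to 0.45). Phc2 lies outside the band at -1.31, and the other 34 genes lie inside it.

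Genes that Polycomb complexes are known to silence in other lineages or until cells age were low. Of 9 such genes 1 was detected, the endoderm and endothelial factor Sox17, at 4.55 TPM in pool 1 against 6.72 TPM in pool 2. Cdkn2a had 0 counts in both pools, which allows at most 0.182 TPM (pool 1) or 0.175 TPM (pool 2). Its neighbour Cdkn2b had 0.22 and 0.21 TPM, and Gata4, Gata6, Hand1, Hand2, Nkx2-5 and Myod1 lay between 0 and 0.260 TPM. Whether Polycomb marks lie on these genes was not measured. Of 6 other SAM and MBT proteins 5 were detected, with Sfmbt1 at 21.96 and 19.3 TPM and L3mbtl3 at 17.4 and 19.4 TPM, and L3mbtl1 at 0.640 and 0.0900 TPM was not.

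Some levels rest on reads that other genes could share. The exons of 14 members overlap another annotated gene, and whether the counting used strand is not given in the sources used here. The largest overlap for its size was that of Phf1, where 1370 of 3486 exon bases are shared with Cuta on the opposite strand, at 121 TPM in pool 1 against 126 TPM in pool 2, so the level of Phf1 is uncertain. Kdm2b shares 627 of 10869 exon bases with Rnf34 on the opposite strand, at 39.1 and 34.6 TPM. Apart from overlaps, 5 members (Bmi1, Kdm2b, Pcgf1, Rbbp7 and Rybp) have a copy elsewhere of at least 95% identity over 300 bases. The copies were at or under 0.420 TPM in either pool except Gm12397, a copy of part of Kdm2b, at 1.62 TPM in pool 1 against 5.66 TPM in pool 2.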

How the data were processed

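Values came from tables of 2 polyA RNA-seq libraries on mm10, which the labels call biological replicates. The deposited expected counts are the authors' estimates of reads for each gene and transcript and were rounded. The deposited TPM values were scaled by the authors to the same total in each library. The posterior mean TPM and its bounds, also deposited, were read as a score, with the level of the bounds not stated. Per the file headers the columns follow the layout of RSEM. Neither quantifier, aligner nor strand setting is given in the sources used here. Release M21 was the main table and M4 the alternative. Entries that name no gene held 5.74e-05% of counts in pool 1 and 9e-05% in pool 2 and were left out.

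The 35 members, the paralog pairs and the context lists were chosen with earlier results of these data known. Every member may be named. Of lists of up to 10 genes any gene may be named, of longer ones the 4 highest and 2 lowest by mean TPM. Of transcripts, the highest of each member and any with at least 10% of TPM in both pools may be named. Every ± is an SD over n = 2 pools, and the pools may differ technically as well as biologically.

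Counts were scaled with edgeR 4.0.16 (TMM on genes averaging 10 counts or more, prior count 1) in R 4.3.3. DESeq2 1.42.0 size factors and spike-in totals were alternatives. The ratio was tested on simulated data with known changes. Copies were found with BLAST 2.17.0. Python 3.11.15, numpy 2.4.6, pandas 2.3.3 and scipy 1.17.1 gave the rest. The TPM of 3 counts is the limit that a count of 0 allows. Intervals and limits cover counting error and nothing else, because the libraries were amplified by PCR and carry no molecular identifiers. Promoters are from RefSeq (GRCm38.p6), and no protein sequence was used.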

Additional observations from a re-analysis of the deposited data

How the results depend on the processing

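No paired analysis was possible because the labels give 1 group. Detection of 35 members held in every alternative run for it except a minimum of 5 TPM, where 32 were detected. The median over members, 28.1 TPM, was 29.1 TPM with the M4 table, 20.1 TPM with coding-sequence transcripts and 18.97 TPM with complete coding transcripts, and 26.95 to 28.3 TPM leaving out each pool. For PRC2 the same gave 50.5, 50.9 and 24.5 TPM, and for PRC1 27.3, 20.1 and 18.0 TPM, with 26.6 to 26.9 TPM leaving out each pool. For PR-DUB the coding and complete coding settings gave 12.1 and 9.38 TPM. The number of members past the threshold was 5 with spike-in scaling and 1 at 1.5-fold, and the median log2 ratio was -0.19 with spike-in scaling. The log2 level ratio of Rbbp4 over Rbbp7 turned to -0.92 with coding-sequence transcripts, -0.92 with complete coding transcripts and -0.25 with counts per base. Likewise Pcgf3 over Pcgf5 turned to -0.20 and Pcgf1 over Pcgf6 to -0.31 with counts per base. With coding-sequence transcripts Pcgf1 over Pcgf6 was -3.04e-05, and Asxl1 over Asxl2 was 0.15, or 1.10 with complete coding transcripts. Phc2 stayed between -1.47 and -1.30 in all 6 alternatives run for it. Over all 22 pairs the fold between paralogs moved by more than 1.5 times in 9 pairs with complete coding transcripts, 8 with counts per base, 4 with coding-sequence transcripts, 3 with posterior mean TPM and 0 with the M4 table. The complete coding settings and the single-gene ratios were chosen after seeing the data. The order of paralogs was not recounted without a pool, since 1 pool gives no spread. Low counts limit Phf19 and Cbx7.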
